A study of Mus musculus with 6 samples.

Results

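The Hox genes encode homeodomain transcription factors that lie in 4 clusters (HoxA to HoxD) of the mouse genome, and 33 of them could be followed in the developing heart valve and in a bone-forming cell line. The members are all genes whose array annotation gives the symbol Hoxa, Hoxb, Hoxc or Hoxd with a number and that at least 1 probe set names alone, which left 33 of the 39 Hox genes of the RefSeq table and 33 of 18193 genes on the arrays. The HoxA cluster contributed 9 genes of 11, HoxB 9 of 10, HoxC 7 of 9 and HoxD 8 of 9. They were read by 48 probe sets of 45101, and 22 of them by a single one. The other Hox genes are not analysed here.

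RNA was hybridised to Affymetrix mouse expression arrays in 3 groups of 2 arrays each. Valves between atria and ventricles, dissected from wild-type FVB/N embryos at day 17.5 (E17.5 valve), have leaflets that lengthen and layer their matrix. From the same wild-type strain came the cushions of day 12.5 at that site (E12.5 cushion), the swelling of mesenchyme that gives rise to those leaflets. MC3T3-E1 (subclone 4; MC3T3 below), the remaining group, is an established mouse line of osteoblast progenitors grown in culture, and stands for 1 subclone only. No group was treated. RNA was pooled before hybridisation, and per the labels a group's arrays are biological duplicates. The sources used here do not give how many embryos, dissections or cultures went into a pool, so p-values measure the spread between pools. The series asks, by its title, what valve remodelling and osteoblast progenitors have in common in expression.

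Within a Hox cluster the genes stand in the order in which they are used along the body axis. Genes of low paralog number are active in the hindbrain, branchial arches and anterior trunk, and those of high number in the lower trunk, limbs and tail bud. Hox proteins bind DNA together with TALE partners (the Pbx and Meis families), retinoic acid and Cdx factors open the clusters during gastrulation, and Polycomb and Trithorax complexes later keep genes silent or active. In the heart, anterior Hox genes mark progenitors of the outflow tract and atria, while cranial and cardiac neural crest brings its own anterior Hox code.

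Hoxa9 and Hoxa10, neighbours in HoxA, had the only called differences in HoxA between the embryonic tissues and MC3T3. The 250 bases upstream of their annotated starts, and of the next gene, Hoxa7, which had no called difference, are shown because they let a reader set the genes side by side. All lie on the minus strand of chromosome 6 in the GRCm38.p6 build, and the sequences are RefSeq's: Hoxa7 at chr6:52218574-52218823, Hoxa9 at chr6:52227371-52227620, and Hoxa10 at chr6:52234940-52235189 and, for a more distant start, at chr6:52240855-52241104. Capitals mark matches, on either strand, to the core of the TATA box (TATAAA), the motif of the CCAAT box, the core of the GC box (GGGCGG) or a composite site of Pbx and Hox proteins (TGATTNAT).
Hoxa7: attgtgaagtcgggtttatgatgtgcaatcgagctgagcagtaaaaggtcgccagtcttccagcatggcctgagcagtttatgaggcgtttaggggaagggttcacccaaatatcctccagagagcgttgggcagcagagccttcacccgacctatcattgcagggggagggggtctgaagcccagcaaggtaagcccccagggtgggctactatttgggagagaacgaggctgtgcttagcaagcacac
Hoxa9: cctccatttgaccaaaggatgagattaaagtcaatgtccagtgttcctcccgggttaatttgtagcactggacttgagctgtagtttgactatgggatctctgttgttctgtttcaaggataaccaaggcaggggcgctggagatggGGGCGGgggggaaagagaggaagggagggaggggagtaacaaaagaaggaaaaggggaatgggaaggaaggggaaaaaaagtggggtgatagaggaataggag
Hoxa10 nearer start: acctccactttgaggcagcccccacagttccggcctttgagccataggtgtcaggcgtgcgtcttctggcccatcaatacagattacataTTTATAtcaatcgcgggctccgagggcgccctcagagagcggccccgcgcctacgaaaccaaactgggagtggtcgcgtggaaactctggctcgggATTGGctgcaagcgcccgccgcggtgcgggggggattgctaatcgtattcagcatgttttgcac
Hoxa10 distant start: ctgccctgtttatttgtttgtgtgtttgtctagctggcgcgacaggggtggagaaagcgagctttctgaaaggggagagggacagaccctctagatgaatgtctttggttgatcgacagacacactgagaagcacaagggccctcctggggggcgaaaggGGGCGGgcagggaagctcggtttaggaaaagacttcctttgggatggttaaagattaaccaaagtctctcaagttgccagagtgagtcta
The Hoxa9 window held 3 CG dinucleotides and a GGGCGG match. In the nearer Hoxa10 window there were 20 CG dinucleotides, a TATAAA match and a CCAAT match, and in the distant one 7 CG dinucleotides and a GGGCGG match. Hoxa7 had 7 CG dinucleotides and none of these letters. Across the 21 windows available for 19 of the measured Hox genes, CCAAT was found in 11 (33.85% of all 32851 windows of the same length), GGGCGG in 8 (32.74%), TATAAA in 2 (12.37%) and TGATTNAT in 2 (2.82%). The median number of CG dinucleotides was 13 in the Hox windows and 6 in all windows. A match describes letters and does not show that a factor binds there.

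A microRNA gene lies between Hoxa9 and Hoxa10, and a sister copy lies between Hoxb13 and Hoxb9 on chromosome 11. Both belong to the miR-196 family, which is known to cleave or repress Hox transcripts. The mature RNA of the HoxA copy (chr6:52230129-52230150, minus strand) and that of the HoxB copy (chr11:96265187-96265208, plus strand) are given from RefSeq (GRCm38.p6), with the seed, bases 2 to 8, in capitals.
mmu-miR-196b-5p: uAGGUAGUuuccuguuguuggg
mmu-miR-196a-5p: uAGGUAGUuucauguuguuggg
The seeds are identical. Mature microRNAs were not measured on these arrays.

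The deposited values are ratios to the median of the 4 embryonic arrays, so 0 on the log2 scale is the centre of those arrays, and how abundant a transcript is relative to another gene's cannot be read from them. The log2 ratios of a gene's probe sets were averaged, and differences carry the standard error (SE) of limma, fitted over all 18193 genes. A gene was called when its Benjamini-Hochberg adjusted p was below 0.05 and its difference at least 2-fold. No Hox probe set was at the lowest deposited ratio, 0.01. The tissue labels were set against marker lists. Of 10 listed osteoblast markers 7 had gene values, and Runx2, Bglap and Spp1 had none. The median log2 ratio of these 7 was 2.53 and 2.64 on the MC3T3 arrays. Of them, 5 were called lower in the E17.5 valve and 5 in the E12.5 cushion than in MC3T3 (7.94% and 10.8% of all genes). Of 10 valve mesenchyme markers, 5 were called higher and 0 lower in the E12.5 cushion than in MC3T3 (median difference 0.97). In the E17.5 valve 3 were called higher and 3 lower (median -0.66), so that list did not set it apart from MC3T3. For 8 cardiomyocyte markers the medians were -6.17 and -6.18 on the MC3T3 arrays, limited by the lowest deposited ratio. On those arrays 4 of the 8 stood at it, and all 8 had at least 1 probe set there. On the E17.5 valve arrays the hepatocyte markers stood at medians of 2.66 and 0.26, and on the E12.5 cushion arrays at -0.33 and -1.40, so the pools of a stage differed in this list. With 2 arrays a group, the number of arrays limits the precision of each value.

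**Figure D1:**
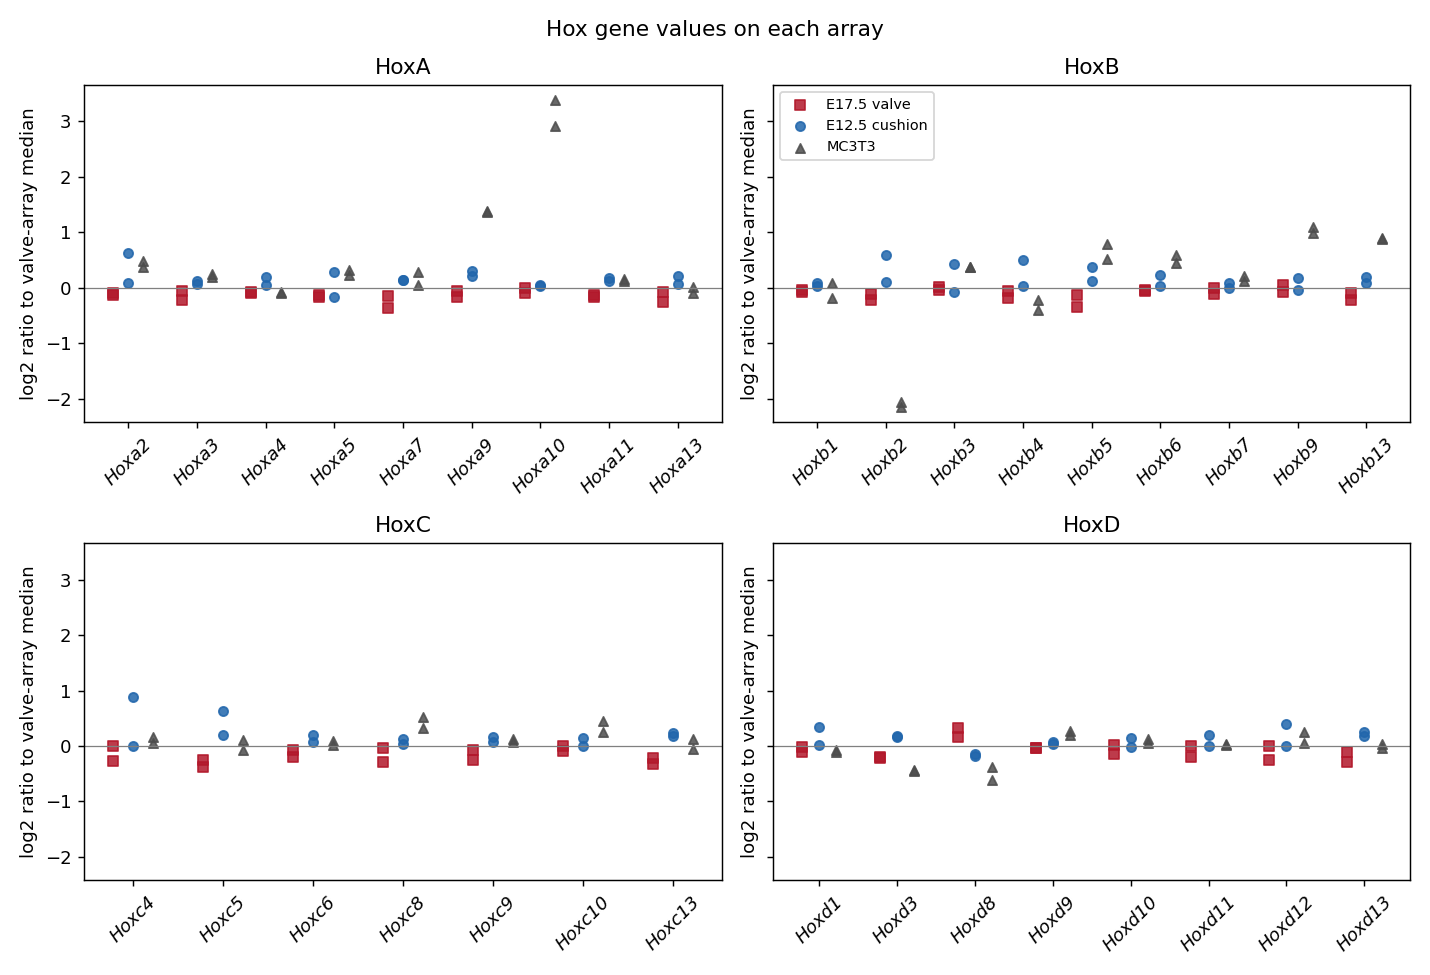
Log2 ratio to the valve-array median (vertical axis) of the 33 Hox genes on each of the 6 arrays, by cluster, with 1 point per array. Hoxa10 and Hoxa9 stand high and Hoxb2 low on the MC3T3 arrays, and most other genes lie close to 0 in all 3 groups.

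Between the valve stages the measured Hox differences were under 2-fold, and ratios cannot show whether a gene's signal stood above background. None of the 33 was called in the E17.5 valve against the E12.5 cushion by limma, where 6.51% of all genes were called (4.67% higher and 1.84% lower in the E17.5 valve), although 18 had an unadjusted p below 0.05. The 95% intervals of 31 genes lay within a 2-fold change either way, the exceptions being Hoxc4 and Hoxc5. Small decreases were common: 16 genes (48.5%) passed the adjusted p alone, by which 53.5% of all genes passed. Of these 15 were lower and 1, Hoxd8, higher in the E17.5 valve, against 34.2% of all genes lower and 19.3% higher. The median difference was -0.27 for the 33 Hox genes and -0.14 for all genes, and 32 of 33 Hox genes lay below 0, as did 65.8% of all genes. When each array was centred on its own median, the median was -0.16 for Hox genes and -0.02 for all genes, and 26 of 33 Hox genes and 52.7% of all genes lay below 0. The count past the adjusted p moved with the arrays used. It was 9 without E12.5 cushion replicate 1, 20 without E12.5 cushion replicate 2, 11 without E17.5 valve replicate 1, 10 without E17.5 valve replicate 2, 12 without either MC3T3 array and 8 with centred arrays. Hoxa9, Hoxc5, Hoxc13, Hoxd3 and Hoxd13 passed whichever array was left out, and the other 11 missed the threshold without at least 1 array.

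Markers of several cell types differed between the same stages. Of 10 valve mesenchyme markers 6 were called lower in the E17.5 valve, with a median difference of -1.07, among them Twist1 (-3.03), a transcription factor of cushion mesenchyme, and Sox9 (-1.07). Their medians were -0.52 and -0.64 on the E17.5 valve arrays and 0.35 and 0.42 on the E12.5 cushion arrays. Of 5 erythroid markers 3, the embryonic globin genes, were called lower, and the list's median was -3.70. Outside the globins, Epb42 differed by -0.90, under 2-fold, and Alas2 by 0.85 in the opposite direction, not past the test. Of 7 neural and neural crest markers Tubb3 (-2.43) and Isl1 (-1.53) were called lower and the list's median was -0.25. Hepatocyte markers ran the other way, with 5 of 6 called higher, and so did 2 of 8 endothelial and 2 of 8 cardiomyocyte markers. Also called higher were 1 of 6 leukocyte, 1 of 6 lung epithelium and 1 of 7 osteoblast markers. Of 6 lung and foregut mesenchyme markers 1 was called lower. Among all genes 4.67% were called higher and 1.84% lower. The part of these cells in the Hox differences was not tested, and in pooled tissue RNA fewer cells of a type and less RNA per cell cannot be told apart.

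Among the anterior genes, paralog groups 1 to 5, 6 of 13 passed the adjusted p, all lower in the E17.5 valve. By that cut 53.5% of all genes passed and 34.2% were lower. The median difference was -0.14 for all genes and -0.38 for the anterior genes. Within the anterior groups the values of single genes follow. Hoxc5 had the largest difference. Its values were -0.38 and -0.24 on the E17.5 valve arrays, 0.64 and 0.19 on the E12.5 cushion arrays, and 0.11 and -0.06 on the MC3T3 arrays. Its stage difference was -0.73 ± 0.15 (SE; 95% interval -1.07 to -0.38; adjusted p = 0.00473, limma), and the arrays of the stages did not overlap. One of its 3 probe sets, 1439885_at, fell by 1.499 on the log2 scale and was called when each probe set was tested alone (adjusted p = 0.00355, limma), whereas 1450832_at and 1456301_at differed by -0.34 and -0.33.

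Hoxb2, which patterns hindbrain segments and the neck, fell by 0.52 ± 0.15 in the E17.5 valve (SE; adjusted p = 0.0191, limma). Without E12.5 cushion replicate 1 that difference was -0.28 (adjusted p = 0.052). Hoxb5 fell by 0.49 ± 0.13 (adjusted p = 0.0151), and its -0.36 without that array did not pass (adjusted p = 0.0777). Hoxa2, the selector of second branchial arch identity, was lower by a difference of -0.47 (adjusted p = 0.0419). It stood at -0.13 and -0.09 on the E17.5 valve arrays, 0.64 and 0.08 on the E12.5 cushion arrays, and 0.37 and 0.48 on the MC3T3 arrays. Without E12.5 cushion replicate 1 its stage difference was -0.19 (adjusted p = 0.141), without E12.5 cushion replicate 2 it was -0.74 (adjusted p = 0.00116), and it missed the threshold when any of the other 4 arrays was left out. Hoxd3, which acts with Hoxa3 on the neck vertebrae, fell by 0.38 ± 0.07 (adjusted p = 0.00336), with -0.22 and -0.19 on the E17.5 valve arrays against 0.17 and 0.19 on the E12.5 cushion arrays. Hoxa3 itself, needed for the thymus and parathyroid glands, differed by -0.24 (adjusted p = 0.0492), and by -0.15 without E17.5 valve replicate 2 (adjusted p = 0.252). Of the anterior genes, 2 passed without E12.5 cushion replicate 1 (Hoxc5 and Hoxd3) and 11 without E12.5 cushion replicate 2. The remaining anterior genes, Hoxa4, Hoxa5, Hoxb1, Hoxb3, Hoxb4, Hoxc4 and Hoxd1, had differences between -0.57 (Hoxc4) and -0.11 (Hoxb1) that did not pass.

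Hoxc4 depended on single arrays as well. It stood at -0.27 and 0.0012 on the E17.5 valve arrays, 0.88 and -0.0012 on the E12.5 cushion arrays, and 0.16 and 0.05 on the MC3T3 arrays. The arrays of the stages overlapped, and its difference was -0.57 ± 0.25 (SE; adjusted p = 0.0872, limma). Without E12.5 cushion replicate 2 it was -1.01 and called (adjusted p = 0.00124), and without E12.5 cushion replicate 1 it was -0.13 (adjusted p = 0.441).

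**Figure D2:**
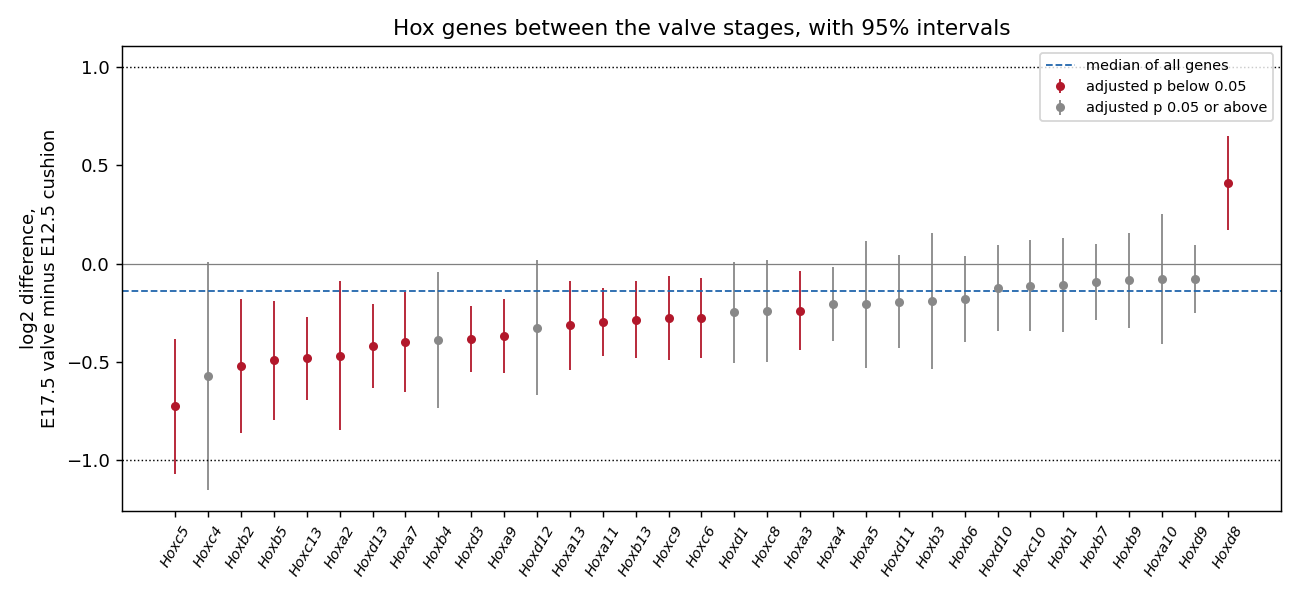
Log2 difference of the 33 Hox genes, E17.5 valve minus E12.5 cushion (vertical axis), ordered by size; points are differences, bars 95% intervals, red an adjusted p below 0.05, and dotted lines a 2-fold change. No point lies beyond the dotted lines, Hoxc5 is lowest at -0.73, and Hoxd8 alone lies above 0, at 0.41.

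Of the 6 central genes, paralog groups 6 to 8, Hoxd8 ran against the rest of the clusters. Its values were 0.16 and 0.33 on the E17.5 valve arrays, -0.14 and -0.19 on the E12.5 cushion arrays, and -0.61 and -0.38 on the MC3T3 arrays. The E17.5 valve exceeded the E12.5 cushion by 0.41 ± 0.10 (SE; adjusted p = 0.012, limma) and both of its probe sets gave the same sign, 0.37 and 0.45. Without E17.5 valve replicate 2 it did not pass (0.33, adjusted p = 0.073). Hoxa7, a gene of thoracic vertebral identity, was lower in the E17.5 valve by a difference of -0.40 (adjusted p = 0.0175), and Hoxc6 by -0.27 (adjusted p = 0.031). Hoxb6, Hoxb7 and Hoxc8 had differences of -0.18, -0.10 and -0.24 and did not pass.

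The posterior genes, paralog groups 9 to 13, had 7 of 14 past the adjusted p, all lower in the E17.5 valve, and a median of -0.28. Among all genes 53.5% passed, 34.2% were lower by that cut, and the median was -0.14. Hoxc13, which controls hair and nail keratins, fell by 0.48 ± 0.09 (SE; adjusted p = 0.00343, limma), with -0.32 and -0.21 on the E17.5 valve arrays against 0.19 and 0.24 on the E12.5 cushion arrays. Hoxd13 and Hoxa13, which pattern digits and the urogenital tract, differed by -0.42 and -0.31, and Hoxa9, Hoxa11, Hoxb13 and Hoxc9 by -0.37, -0.30, -0.29 and -0.28 (Hoxc9 by -0.18 without E17.5 valve replicate 1, adjusted p = 0.199). Hoxa10, Hoxb9, Hoxc10, Hoxd9, Hoxd10, Hoxd11 and Hoxd12 lay between -0.33 (Hoxd12) and -0.08 (Hoxd9) without passing. Over all 33 genes, the arrays of the stages did not overlap for 25 lower and 1 higher in the E17.5 valve, where all genes had 52.8% and 25.9%.

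Against MC3T3, 5 Hox genes were called in at least 1 tissue and 28 in neither. In the E17.5 valve 5 of 33 were called (15.2%, against 17.7% of all genes), Hoxb2 higher and Hoxa10, Hoxa9, Hoxb9 and Hoxb13 lower than in MC3T3. In the E12.5 cushion 3 of 33 were called (9.09%, against 21.1% of all genes), Hoxb2 higher and Hoxa10 and Hoxa9 lower. By direction, all genes gave 9.78% higher and 7.94% lower for the E17.5 valve against MC3T3 and 10.2% higher and 10.8% lower for the E12.5 cushion against MC3T3. These comparisons share the MC3T3 arrays and so are not independent of each other. The 28 Hox genes called in no comparison ranged from -0.38 to 0.33 on the E17.5 valve arrays, from -0.19 to 0.88 on the E12.5 cushion arrays and from -0.61 to 0.78 on the MC3T3 arrays.

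Hoxa10, which acts in the lumbar spine, limb and uterus and is known to favour osteoblast genes in mouse bone cells, had the largest difference of the family. It stood at 0.0019 and -0.09 on the E17.5 valve arrays, 0.04 and 0.03 on the E12.5 cushion arrays, and 2.91 and 3.38 on the MC3T3 arrays. No embryonic array came near those of MC3T3. The E17.5 valve was 9.14-fold lower than MC3T3, a log2 difference of -3.19 ± 0.14 (SE; 95% interval -3.52 to -2.86; adjusted p = 6.76e-07, limma). The E12.5 cushion was 8.64-fold lower, -3.11 ± 0.14 (adjusted p = 7.53e-07). Its probe sets 1431475_a_at and 1446408_at were called alone, at -3.56 and -2.82 for the E17.5 valve and -3.48 and -2.75 for the E12.5 cushion against MC3T3.

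Hoxa9, a regulator of blood progenitors and of thoracic and lumbar identity, lies next to Hoxa10 and was also lower in both tissues. Its values were -0.17 and -0.06 on the E17.5 valve arrays, 0.29 and 0.21 on the E12.5 cushion arrays, and 1.37 and 1.38 on the MC3T3 arrays. Against MC3T3 the log2 difference was -1.49 ± 0.08 in the E17.5 valve (SE; adjusted p = 2.10e-06, limma) and -1.13 ± 0.08 in the E12.5 cushion (adjusted p = 8.94e-06). Its probe sets disagreed: 1455626_at gave -2.67 for the E17.5 valve and -2.18 for the E12.5 cushion against MC3T3, and 1421579_at gave -0.32 and -0.08. On the MC3T3 arrays 1455626_at read 2.53 and 2.53 and 1421579_at 0.21 and 0.23, so the gene's value averages a set that separates the groups and one whose difference did not pass the test.

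Hoxb2 ran the other way. It stood at -0.12 and -0.22 on the E17.5 valve arrays, 0.59 and 0.11 on the E12.5 cushion arrays, and -2.07 and -2.15 on the MC3T3 arrays. All 4 embryonic arrays were above those of MC3T3. The difference from MC3T3 was 1.94 ± 0.15 in the E17.5 valve (SE; 3.83-fold; adjusted p = 1.40e-05, limma) and 2.46 ± 0.15 in the E12.5 cushion (5.49-fold; adjusted p = 3.22e-06), from 1 probe set. Its HoxB neighbours were not called. On one side Hoxb1 differed from MC3T3 by -0.0013 in the E17.5 valve and 0.11 in the E12.5 cushion, neither past the test. On the other side Hoxb3 differed from MC3T3 by -0.38 in the E17.5 valve and -0.19 in the E12.5 cushion, neither past the test. Hoxb4, a regulator of blood stem cells on the same side, was above MC3T3 by 0.58 ± 0.15 (SE) in the E12.5 cushion. That difference passed the adjusted p (0.0105, limma) but was under 2-fold, and the 0.19 of Hoxb4 in the E17.5 valve did not pass.

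Hoxb9, a thoracic and mammary regulator, read -0.08 and 0.05 on the E17.5 valve arrays, 0.18 and -0.05 on the E12.5 cushion arrays, and 0.99 and 1.10 on the MC3T3 arrays. Hoxb13, known from the tail and the prostate, read -0.22 and -0.09 on the E17.5 valve arrays, 0.08 and 0.19 on the E12.5 cushion arrays, and 0.88 and 0.89 on the MC3T3 arrays. For each of these genes both tissues lay below MC3T3 on every array. In the E17.5 valve Hoxb9 differed from MC3T3 by -1.06 ± 0.10 (SE; adjusted p = 5.92e-05, limma) and Hoxb13 by -1.04 ± 0.08 (adjusted p = 2.05e-05). In the E12.5 cushion both passed the adjusted p without reaching 2-fold, at -0.98 ± 0.10 and -0.75 ± 0.08. The calls in the E17.5 valve turn on the fold threshold: with centred arrays the values were -0.94 and -0.91, which left 1 gene called higher and 2 lower. Without E17.5 valve replicate 1 they were -0.998 and -0.97, both under 2-fold. Hoxb9 was called in the E12.5 cushion without E12.5 cushion replicate 1 (-1.09) or without MC3T3 replicate 1 (-1.04).

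**Figure D3:**
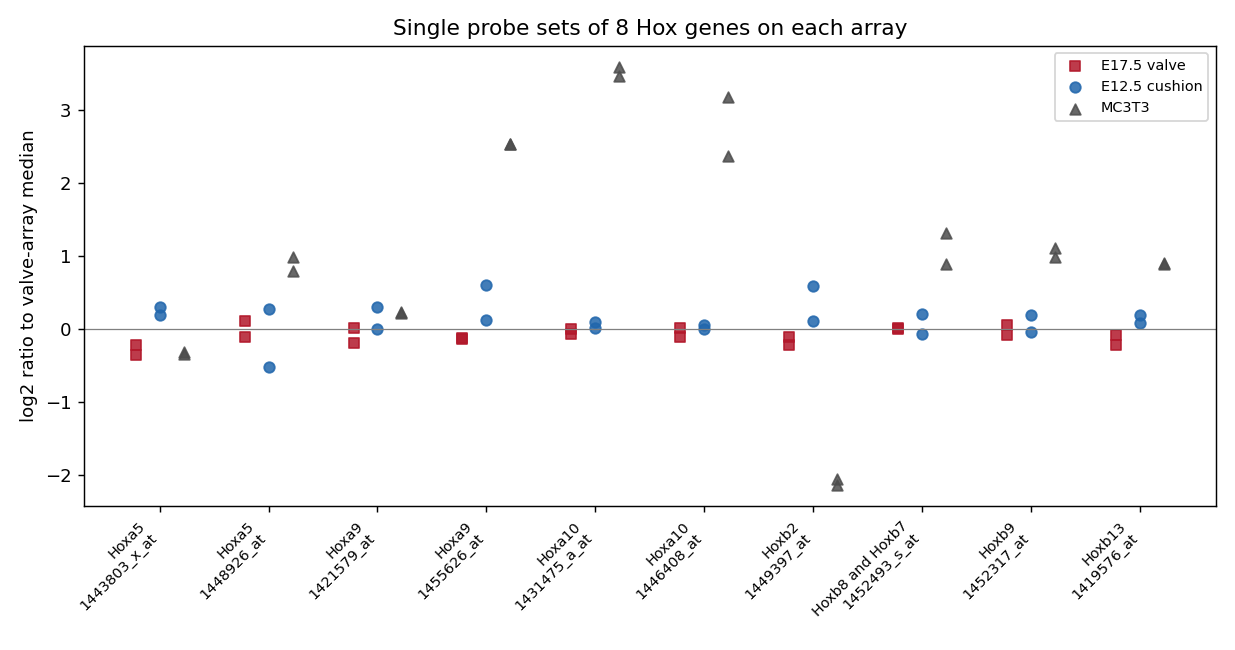
Log2 ratio to the valve-array median (vertical axis) of single probe sets on each of the 6 arrays, for 8 Hox genes. Both Hoxa10 probe sets are high in MC3T3, 1 of the Hoxa9 sets is, and the Hoxa5 sets lie on opposite sides of 0 in MC3T3.

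Seen by position, the 4 genes called lower in the E17.5 valve than in MC3T3 were all among the 14 of paralog groups 9 to 13. In groups 1 to 5, 0 of 13 were called lower and in groups 6 to 8, 0 of 6, where 7.94% of all genes were. The split turns on the threshold: Hoxb9 and Hoxb13 lost the call with centred arrays, and Hoxb5, of group 5, lay at -0.89. The probe set shared by Hoxb8 and Hoxb7, outside these counts, was called lower at -1.10. Whether the share differs between positions was not tested. The other posterior genes had differences from MC3T3 between -0.39 (Hoxc10) and -0.13 (Hoxd11) in the E17.5 valve and between -0.27 (Hoxc10) and 0.21 (Hoxd13) in the E12.5 cushion. No HoxC or HoxD gene was called against MC3T3 in either tissue.

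With no fold threshold, 19 Hox genes passed the adjusted p in the E17.5 valve against MC3T3, 3 higher and 16 lower, where 60.1% of all genes passed, 21.3% higher and 38.8% lower. These include the 5 called ones, so 14 passed below 2-fold, 2 higher and 12 lower, as did 42.4% of all genes (11.5% higher and 30.9% lower). In the E12.5 cushion 12 passed, 4 higher and 8 lower, where 57.6% of all genes passed, 29.4% higher and 28.3% lower. Less the 3 called ones, 9 passed below 2-fold, 3 higher and 6 lower, as did 36.6% of all genes (19.1% higher and 17.4% lower). Hoxb5, expressed in the gut wall and lung mesenchyme, read -0.13 and -0.34 on the E17.5 valve arrays, 0.38 and 0.12 on the E12.5 cushion arrays, and 0.78 and 0.52 on the MC3T3 arrays. Its difference from MC3T3 was -0.89 ± 0.13 in the E17.5 valve (SE; adjusted p = 0.000604, limma), which reached -1.02 and a call without MC3T3 replicate 2. Hoxb6 and Hoxc8 were lower by differences of -0.56 and -0.59 in the E17.5 valve and of -0.38 and -0.35 in the E12.5 cushion. Hoxd8 was higher than in MC3T3 in both tissues, by 0.75 ± 0.10 in the E17.5 valve (adjusted p = 0.000434) and 0.34 ± 0.10 in the E12.5 cushion (adjusted p = 0.0234), and Hoxd3 by 0.24 and 0.62.

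Hoxa5, which is needed for the trachea and lung, was not called on its mean value, -0.43 in the E17.5 valve and -0.22 in the E12.5 cushion against MC3T3. Its probe set 1448926_at alone differed by -1.02 in the E12.5 cushion and was called (adjusted p = 0.0056, limma), while 1443803_x_at differed by 0.58 in the opposite direction. The first read 0.27 and -0.53 on the E12.5 cushion arrays against 0.98 and 0.79 on the MC3T3 arrays, so its cushion arrays lay far apart. Over all Hox genes the median difference from MC3T3 was -0.27 in the E17.5 valve, with -0.15 for all genes, and 0.01 in the E12.5 cushion, with 0.01 for all genes. Arrays did not overlap with those of MC3T3 for 4 genes higher and 25 lower in the E17.5 valve (28.1% and 55.9% of all genes) and for 10 higher and 11 lower in the E12.5 cushion (40.4% and 38.1%).

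**Figure D4:**
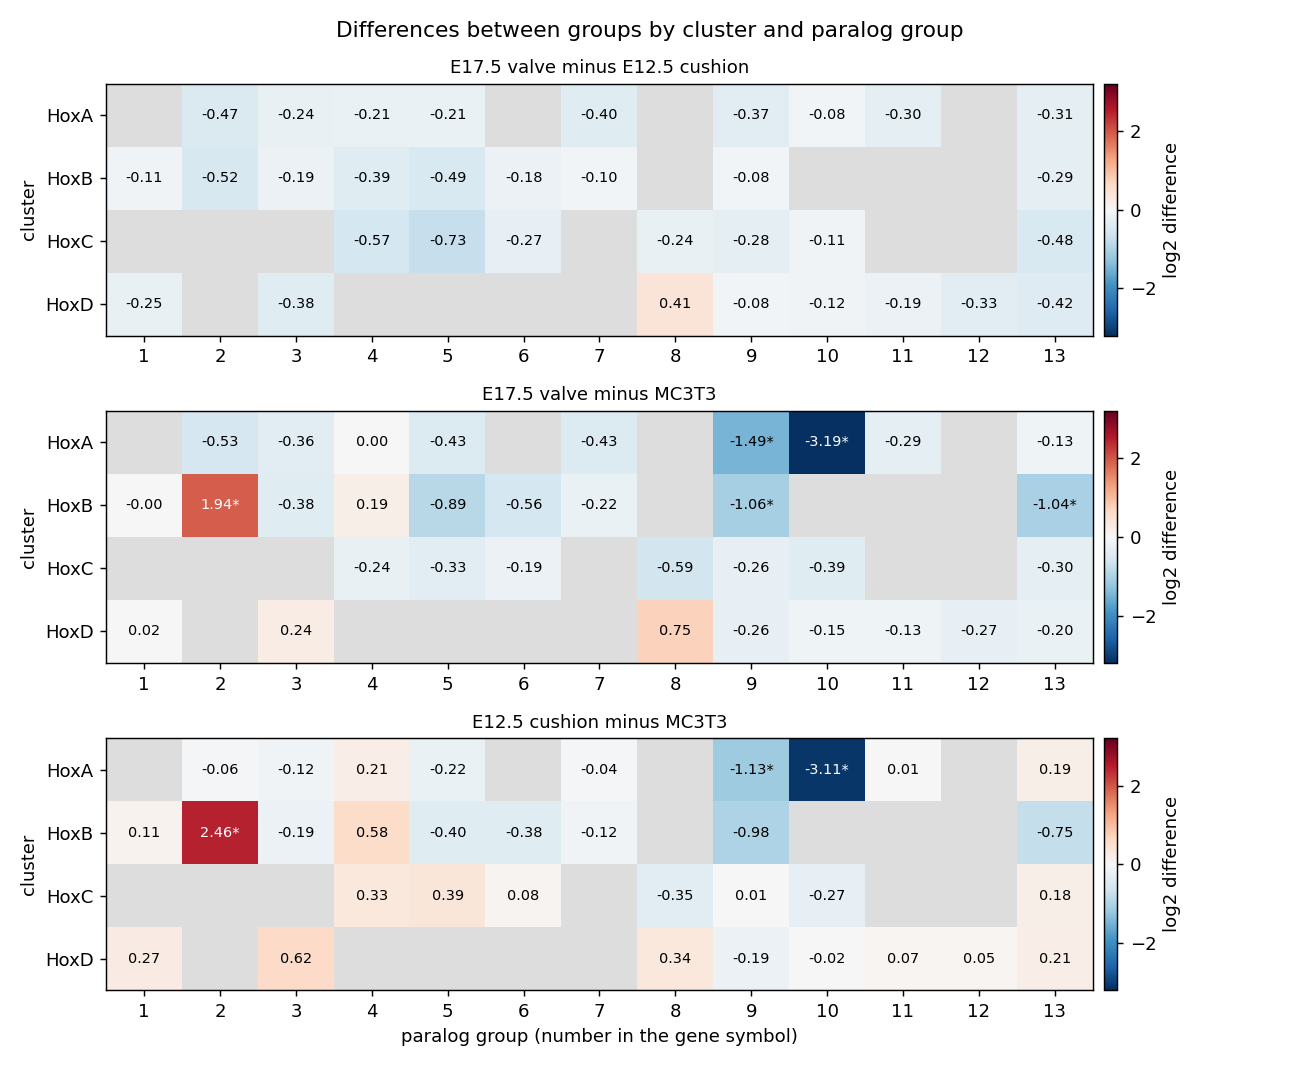
Log2 differences between groups for each measured Hox gene, set out by cluster (vertical) and paralog group (horizontal), with grey for genes not read alone and an asterisk for called genes. The stage panel is pale throughout, and the MC3T3 panels hold the strongest colour at Hoxa10 and Hoxb2, with less at Hoxa9. For the E17.5 valve against MC3T3, the called Hoxb9 (-1.06) and Hoxb13 (-1.04) lie close to Hoxb5 (-0.89), which was not called.

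The anterior Hox genes also differed between the pools of 1 stage. On the E12.5 cushion arrays, replicate 1 exceeded replicate 2 for 12 of 13 genes of paralog groups 1 to 5, with a median difference of 0.45, whereas groups 6 to 13 had 12 of 20 and a median of 0.03. All genes had a median of 0.05 between those arrays, with 62.2% higher in replicate 1. The split at group 5 was chosen after the values were seen and carries no test. The largest gaps were at Hoxc4 (0.88), Hoxa2 (0.55), Hoxb3 (0.50), Hoxb2 (0.48), Hoxb4 (0.46), Hoxa5 (0.45) and Hoxc5 (0.45), in the HoxA, HoxB and HoxC clusters. Between the E17.5 valve arrays the same groups had a median of 0.04, and between the MC3T3 arrays 0.02.

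Some marker lists also differed between these pools and others did not. Hepatocyte markers were higher in E12.5 cushion replicate 1 than in replicate 2 for 6 of 6 genes (medians -0.33 and -1.40) and erythroid markers for 5 of 5 (medians 1.10 and 0.87), with Hba-x at 1.84 and 0.98, Epb42 at 1.10 and 0.12 and Alas2 at -0.03 and -1.46. Leukocyte markers were higher in replicate 1 for 5 of 6, and the median gap between the arrays was 0.28. Lung and foregut mesenchyme markers were higher for 4 of 6 with a median gap of 0.09, near the 0.05 of all genes. Neural and neural crest markers were higher for 3 of 7 and valve mesenchyme markers for 2 of 10. Of the 19 upstream signals 13 were higher in replicate 1, with a median gap of 0.07, where 62.2% of all genes were higher. From that list Aldh1a2, the enzyme that makes retinoic acid in embryonic mesoderm, read 0.59 and -0.20 and Aldh1a1, a related enzyme, 0.44 and -0.25, a pair named after their values were seen. Other retinoic acid genes went both ways: Dhrs3 read 0.54 and 0.06, but Cyp26b1 0.57 and 0.69 and Rara 0.09 and 0.24. Rarb, a retinoic acid receptor gene, read 0.01 and -0.06. The part of these genes and lists in the Hox values was not tested. Each stage difference of an anterior gene rests on the mean of these cushion arrays.

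**Figure D5:**
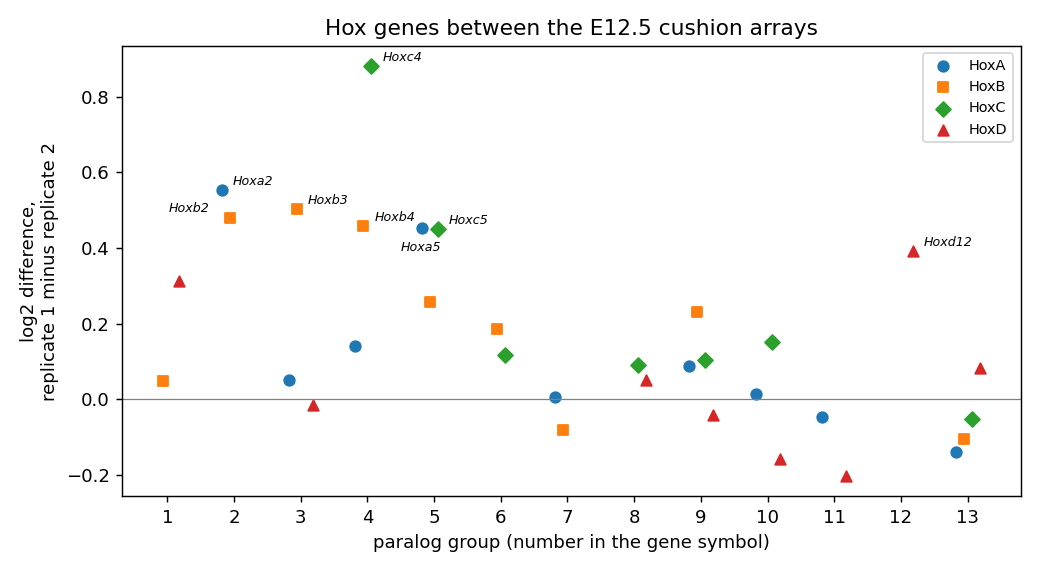
Log2 difference between the E12.5 cushion arrays, replicate 1 minus replicate 2 (vertical axis), against the paralog group of each Hox gene (horizontal axis), with 1 point per gene and a symbol per cluster. Points of groups 2 to 5 reach 0.88, and most of those from group 6 on lie within 0.2 of 0.

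Partners and regulators of the Hox proteins were read from 5 lists. Of 8 measured TALE cofactors, Pbx2 alone was called lower in the E17.5 valve than in the E12.5 cushion, at -1.18 ± 0.08 (SE; adjusted p = 4.41e-05, limma). Pbx2 was also called higher than in MC3T3, by 1.10 in the E17.5 valve and 2.28 in the E12.5 cushion. Meis2 was lower than in MC3T3, at -1.05 ± 0.08 in the E17.5 valve (called) and -0.70 in the E12.5 cushion (under 2-fold). Meis1 differed by 0.04 between the stages (adjusted p = 0.648) and was higher than in MC3T3 by 0.57 in the E17.5 valve and 0.52 in the E12.5 cushion, both past the adjusted p but under 2-fold.

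Polycomb proteins, which keep Hox genes silent, were measured for 27 genes. Between the stages Bmi1 was called higher in the E17.5 valve, by 1.45 ± 0.09 (SE; adjusted p = 3.24e-05, limma), and Phc1 lower, at -1.01. Against MC3T3, 1 was called higher and 4 lower in the E17.5 valve, and 2 higher and 7 lower in the E12.5 cushion. That is 18.5% and 33.3% of the list, against 17.7% and 21.1% of all genes. Jarid2, which helps to recruit the complex, was higher than in MC3T3 by 1.60 in the E17.5 valve and 1.92 in the E12.5 cushion, and Phc2 by 1.11 in the E12.5 cushion. Lower than in MC3T3 were Pcgf1 (-2.07), Ring1 (-1.66) and Aebp2 (-1.33) in the E17.5 valve, and Bmi1 (-2.33), Aebp2 (-2.02) and Pcgf1 (-1.73) in the E12.5 cushion. Ezh2, the methyltransferase subunit, was called nowhere, with differences of 0.15 between the stages, -0.38 for the E17.5 valve and -0.53 for the E12.5 cushion against MC3T3.

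Of 11 Trithorax proteins and demethylases of the Polycomb mark, Psip1, which tethers such complexes to chromatin, was called higher in the E17.5 valve than in the E12.5 cushion, by 1.16 ± 0.10 (SE; adjusted p = 0.000125, limma). Kmt2a, the methyltransferase that maintains Hox expression, was called lower in the E12.5 cushion than in MC3T3 (-1.19). Its differences of 0.56 between the stages and -0.63 for the E17.5 valve against MC3T3 passed the adjusted p only.

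The upstream signals of the clusters, 19 genes measured, held large differences from MC3T3 in retinoic acid genes. Rarb, a retinoic acid receptor gene that is itself induced by retinoic acid, was higher than in MC3T3 by 4.54 ± 0.09 in the E17.5 valve (SE; adjusted p = 1.13e-08, limma) and 4.51 ± 0.09 in the E12.5 cushion (adjusted p = 1.16e-08). Aldh1a2 was higher by 4.98 and 5.19 and Aldh1a1 by 2.94 and 3.04. Gmnn was among the genes called higher in both tissues, giving 4 of 19 higher in the E17.5 valve (9.78% of all genes) and, with Cyp26b1, 5 of 19 in the E12.5 cushion (10.2% of all genes). Other retinoic acid genes differed from MC3T3 by less than 2-fold: Rara by -0.32 in the E17.5 valve and 0.11 in the E12.5 cushion, Rxra by -0.40 and -0.08, Aldh1a3 by -0.11 and -0.37, and Cyp26a1 by 0.21 and 0.27. Cyp26b1, which degrades retinoic acid, was also the gene of the list called between the stages, at -1.66 ± 0.09 in the E17.5 valve. Egr2, a hindbrain activator of Hoxa2 and Hoxb2, was lower than in MC3T3 by differences of -2.66 in the E17.5 valve and -2.36 in the E12.5 cushion, and Rarg by -1.18 in the E17.5 valve.

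Of 14 measured genes that flank the clusters, 0 were called between the stages, 1 higher and 2 lower in the E17.5 valve than in MC3T3, and 4 lower in the E12.5 cushion than in MC3T3. The shares of 0%, 21.4% and 28.6% stand against 6.51%, 17.7% and 21.1% of all genes. Next to HoxA, Skap2 was lower than in MC3T3 at -1.61 in the E17.5 valve and -1.69 in the E12.5 cushion. Beside HoxD, Lnpk was lower at -1.23 and -1.95 while Mtx2 was higher at 1.09 in the E17.5 valve, and Atf2 was lower at -1.17 in the E12.5 cushion. Hnrnpa1, beside HoxC, was lower at -1.15 in the E12.5 cushion.

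Set beside all genes, whose median differences were -0.14 between the stages, -0.15 for the E17.5 valve against MC3T3 and 0.01 for the E12.5 cushion against MC3T3, the lists had these medians in the same order of comparisons. TALE cofactors had -0.49, -0.54 and 0.08, and Trithorax proteins and demethylases -0.42, -0.17 and 0.44. Polycomb proteins had -0.03, -0.21 and -0.25. Upstream signals had -0.23, -0.15 and 0.11, and flanking genes -0.10, -0.16 and 0.05.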

How the data were processed

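Affymetrix mouse arrays carried pooled RNA of 6 samples, 2 per group. The labels' protocols describe 2 amplification routes without saying which samples had which, so route and group cannot be told apart. The authors deposited linear ratios, and the submitters' processing notes name RMA. In the table, each probe set has a median of 1 over the 4 embryonic arrays (largest deviation 1.5e-07). The sources used here do not give whether MC3T3 and embryonic arrays were normalized in 1 run. Arrays give no read depth, and ratios no level, so no filter on dim genes was possible.

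Control probe sets (64), those naming several genes (932) and those without a name (9160) were left out. The other 34945 name 18193 genes, of which 18145 matched RefSeq symbols. Gene values were mean log2 ratios, fitted with limma 3.58.1 in R 4.3.3 (lmFit and eBayes on all 6 arrays, 3 residual and 4.57 prior degrees of freedom) and p-values adjusted by Benjamini-Hochberg over all genes of a comparison. The method was tested on simulated data. Tables were made with Python 3.11.15 and pandas 2.3.3. Every measured Hox gene was named. Values on all 6 arrays were given for the Hox genes called against MC3T3, and for Hoxa2, Hoxb5, Hoxc4, Hoxc5 and Hoxd8. Up to 3 called members each way of each pathway list were named, and Meis1, Meis2, Ezh2 and Kmt2a in any case. The members and lists were chosen with earlier results of these data known. Alternatives covered array centring, thresholds, the variance model, the replicate block, arrays left out, only the arrays compared, the probe set summary, a pseudocount of 0.1 on the ratio, and genes at the lowest ratio left out.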

Additional observations from a re-analysis of the deposited data

Results flagged for a closer look

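A probe set that names Hoxb8 and Hoxb7 together (1452493_s_at) lies outside the gene values and carried a signal above the embryonic arrays. It read 0.01 and -0.01 on the E17.5 valve arrays, 0.20 and -0.07 on the E12.5 cushion arrays, and 0.88 and 1.31 on the MC3T3 arrays, so no embryonic array reached those of MC3T3. Its log2 difference from MC3T3 was -1.10 in the E17.5 valve (adjusted p = 0.000453, limma with each probe set tested alone) and -1.03 in the E12.5 cushion (adjusted p = 0.000548). Which of its genes it reads cannot be told. The probe set that names Hoxb7 alone differed from MC3T3 by -0.22 in the E17.5 valve and -0.12 in the E12.5 cushion.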

How the results depend on the processing

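The count of Hox genes called between the stages was 0 and became 16 with no fold threshold. It was 1 (Hoxc5) when a gene counted if any of its probe sets was called alone. With an array left out it was 0 to 1 (Hoxc4 without E12.5 cushion replicate 2). For the E17.5 valve against MC3T3 the 5 calls became 3 with centred arrays, 3 with log2 of the ratio plus 0.1, 19 with no fold threshold, 1 at 4-fold and 3 to 6 with an array left out. Hoxb9 and Hoxb13 were the calls lost by centring and by the pseudocount (-0.99 and -0.96). For the E12.5 cushion against MC3T3 the 3 calls became 12 with no fold threshold, and 3 to 4 with an array left out. Hoxa5 was added at -1.02 when probe sets ending in _s_at, _x_at or _a_at were left out. With the replicate block the counts were 0, 5 and 3 in that order of comparisons, the same as without it. The main fit did not treat replicate numbers as pairs. Differences between replicates correlated across genes at 0.15, 0.058 and 0.023, which cannot show whether samples of the same number shared a batch. Of 1383 gene differences under 14 alternatives, 1372 kept their side of the thresholds, 6 lost a call and 5 gained one. Signs turned in 31, in 18 genes, none past the thresholds. Hoxa10, Hoxa9 and Hoxb2 kept their calls against MC3T3 throughout, except Hoxa9 and, in the E17.5 valve, Hoxb2 at 4-fold. Over all genes, calls between the stages numbered 1185, with 9740 at no fold threshold and 154 at 4-fold. Counting each gene with any probe set called alone gave 2147 genes. Against MC3T3 they numbered 3225 in the E17.5 valve (10942 and 1233 under those thresholds) and 3830 in the E12.5 cushion (10482 and 1243). Centring turned 850 higher and 335 lower calls between the stages into 1065 and 211. Where no construction shows it, the cause was not tested. Signal over background is not in ratios, so dim genes could not be set apart.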

Other observations

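Probe sets of antisense or opposite-strand transcripts of the clusters (5, for 3 genes) were not called in any comparison when tested alone. Those of Hoxd3os1 disagreed: in the E17.5 valve against MC3T3, 1430263_at differed by -0.70 (adjusted p = 0.000642, limma) and 1460056_at by 0.76 (adjusted p = 0.0179). Hoxa11os, beside the limb gene Hoxa11, differed by -0.27 and -0.22 between the stages in its probe sets, neither past the test. The probe sets that name Hoxd4 and Hoxd3 together differed from MC3T3 by -0.02 and 0.28 in the E17.5 valve and by 0.42 and 0.44 in the E12.5 cushion, where both passed the adjusted p without reaching 2-fold.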
